A study of Mus musculus with 2 samples.

Results

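The genes described here are 6 members of the Fc receptor system of myeloid and natural killer (NK) cells, out of 17775 genes in the deposited matrix: Fcgr1, Fcgr2b, Fcgr3, Fcgr4, Fcer1g and Tyrobp. They were chosen by name, and with an earlier result of these data in view, namely a lower Fcer1g level in CD8 T cells of the DFMO library, so that value is given below as a description. Tumours of MC38, a mouse colon carcinoma line, were grown in the back of C57BL/6 mice and are called xenografts in the labels. From day 7 after implantation the mice were gavaged for 14 days with DFMO (difluoromethylornithine, an inhibitor of the polyamine enzyme ornithine decarboxylase) or with water. The labels differ on the number of doses per day. Immune cells were enriched on Ficoll, cells of 4 mice were mixed per group, and 1 droplet library of 5′ ends was made from each pool. The mice of a pool cannot be told apart, so each group is 1 sample. No test between groups was possible, and every interval below is a 95% interval that covers counting error only.

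Fcγ receptors bind the constant part of IgG. In the mouse, Fcgr1 encodes the high-affinity activating receptor, Fcgr3 and Fcgr4 encode activating receptors of lower affinity, and Fcgr2b encodes the inhibitory receptor, which is also the Fcγ receptor of B cells. The activating receptors signal through the γ chain encoded by Fcer1g, and Tyrobp encodes DAP12, a related adaptor that serves other activating receptors of myeloid and NK cells. NK cells use Fcgr3 with the γ chain to recognise antibody-coated targets.

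The DFMO library held 4472 cells and the water library 6248, of which 4421 and 6150 were kept, with a median of 2208 and 6334 unique molecular identifiers (UMIs) per cell. 37 cell barcodes occurred in both libraries. The labels call the cells immune cells, yet clusters nearly without Ptprc, the gene of the pan-leukocyte marker CD45, held 164 DFMO and 1067 water cells that expressed matrix genes and 524 DFMO and 1841 water cells that did not. B cell-like cells numbered 1478 in the DFMO library and 57 in the water library, and monocyte and macrophage-like cells 176 and 1162. Cell names rest on marker genes that exclude all 6 members. Levels are given as CPM, the UMIs of a gene divided by all UMIs of the cluster in that library and multiplied by 1000000. A UMI at the 5′ end counts a molecule once whatever its length, so CPM of different genes are set side by side as molecule counts.

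In the mm10 build, 4 of the 6 genes lie on chromosome 1: Fcgr2b at 170958617 to 170976547 on the minus strand, Fcgr4 at 171018920 to 171029761 on the plus strand, Fcgr3 at 171051174 to 171064935 on the minus strand and Fcer1g at 171229572 to 171234365 on the minus strand. Fcgr1 lies on chromosome 3 at 96282909 to 96293969 on the minus strand, and Tyrobp on chromosome 7 at 30413760 to 30417585 on the plus strand. All are annotated as protein coding. Fcgr2b and Fcgr3 have near-identical stretches: 13.4% of the 31-base words of Fcgr3 transcripts also occur in Fcgr2b transcripts, so reads from those stretches are uncertain between the pair. Fcgr2b also overlaps a gene on the other strand, Gm38204, and Fcgr3 and Fcgr4 each overlap a gene on their own strand, Mir6546 and Gm26110.

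The 4 windows below show the 120 bases before the RefSeq start of the 3 activating receptor genes and of their γ chain gene (RefSeq, GRCm38.p6). The window of Fcgr2b is not printed because 57 of its bases are annotated as exon, and it held no match. The letters searched were GAGGAA, the core of the box bound by the myeloid factor PU.1, on both strands, and capitals mark a match, which here reads TTCCTC.
Fcgr1, chr3:96293970-96294089, minus strand: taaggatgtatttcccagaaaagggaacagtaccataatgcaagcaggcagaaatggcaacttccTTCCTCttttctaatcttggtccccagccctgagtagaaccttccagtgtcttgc
Fcgr3, chr1:171059404-171059523, minus strand: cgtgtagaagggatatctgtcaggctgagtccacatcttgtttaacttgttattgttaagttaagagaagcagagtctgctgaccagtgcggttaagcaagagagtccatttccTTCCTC
Fcgr4, chr1:171018806-171018925, plus strand: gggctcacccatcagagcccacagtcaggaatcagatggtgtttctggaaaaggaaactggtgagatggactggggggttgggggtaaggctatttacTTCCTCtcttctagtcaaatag
Fcer1g, chr1:171234350-171234469, minus strand: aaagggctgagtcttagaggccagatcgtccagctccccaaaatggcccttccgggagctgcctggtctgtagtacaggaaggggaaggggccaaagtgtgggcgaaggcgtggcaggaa
The match began 55 bases before the start in Fcgr1, 22 in Fcgr4 and 6 in Fcgr3, and the Fcer1g window held none. Fcgr3 has 2 listed starts, and the farther upstream was used; its window lies inside the longer gene of the GENCODE annotation. In the 250 bases before the start, 3 of 5 members with a window held the letters, against 25.9% of 27025 genes. A match is a string of letters and not a measured binding site.

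Monocyte and macrophage-like cells carried all 6 genes at high levels, and the levels of DFMO and water cells lay close together. Fcer1g reached 5856 CPM in DFMO cells and 6716 CPM in water cells, a log2 ratio of -0.20 (interval -0.24 to -0.16). Tyrobp reached 5034 CPM in DFMO cells and 5587 CPM in water cells, with a log2 ratio of -0.15 (-0.19 to -0.11). The adaptor genes were therefore both slightly lower in the DFMO library, by less than the 1.5-fold used as a size rule.

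Among the activating receptors, Fcgr3 had 894 CPM in DFMO and 879 CPM in water monocytes and macrophages (log2 ratio 0.02, -0.08 to 0.13). Fcgr1 had 508 CPM in DFMO and 586 CPM in water cells (-0.20, -0.34 to -0.07). Fcgr4 had 293 CPM in DFMO and 335 CPM in water cells (-0.19, -0.37 to -0.02). The inhibitory Fcgr2b had 624 CPM in DFMO and 715 CPM in water cells (-0.20, -0.32 to -0.08). None of the 6 genes passed 1.5-fold, where 7.41% of 8753 measured genes were past it upwards and 8.45% downwards. With the 5 subsets weighted by their share of the UMIs in water, the ratios lay between -0.17 for Tyrobp and 0.05 for Fcgr3, and that of Fcgr4 was 0.02.

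**Figure D1:**
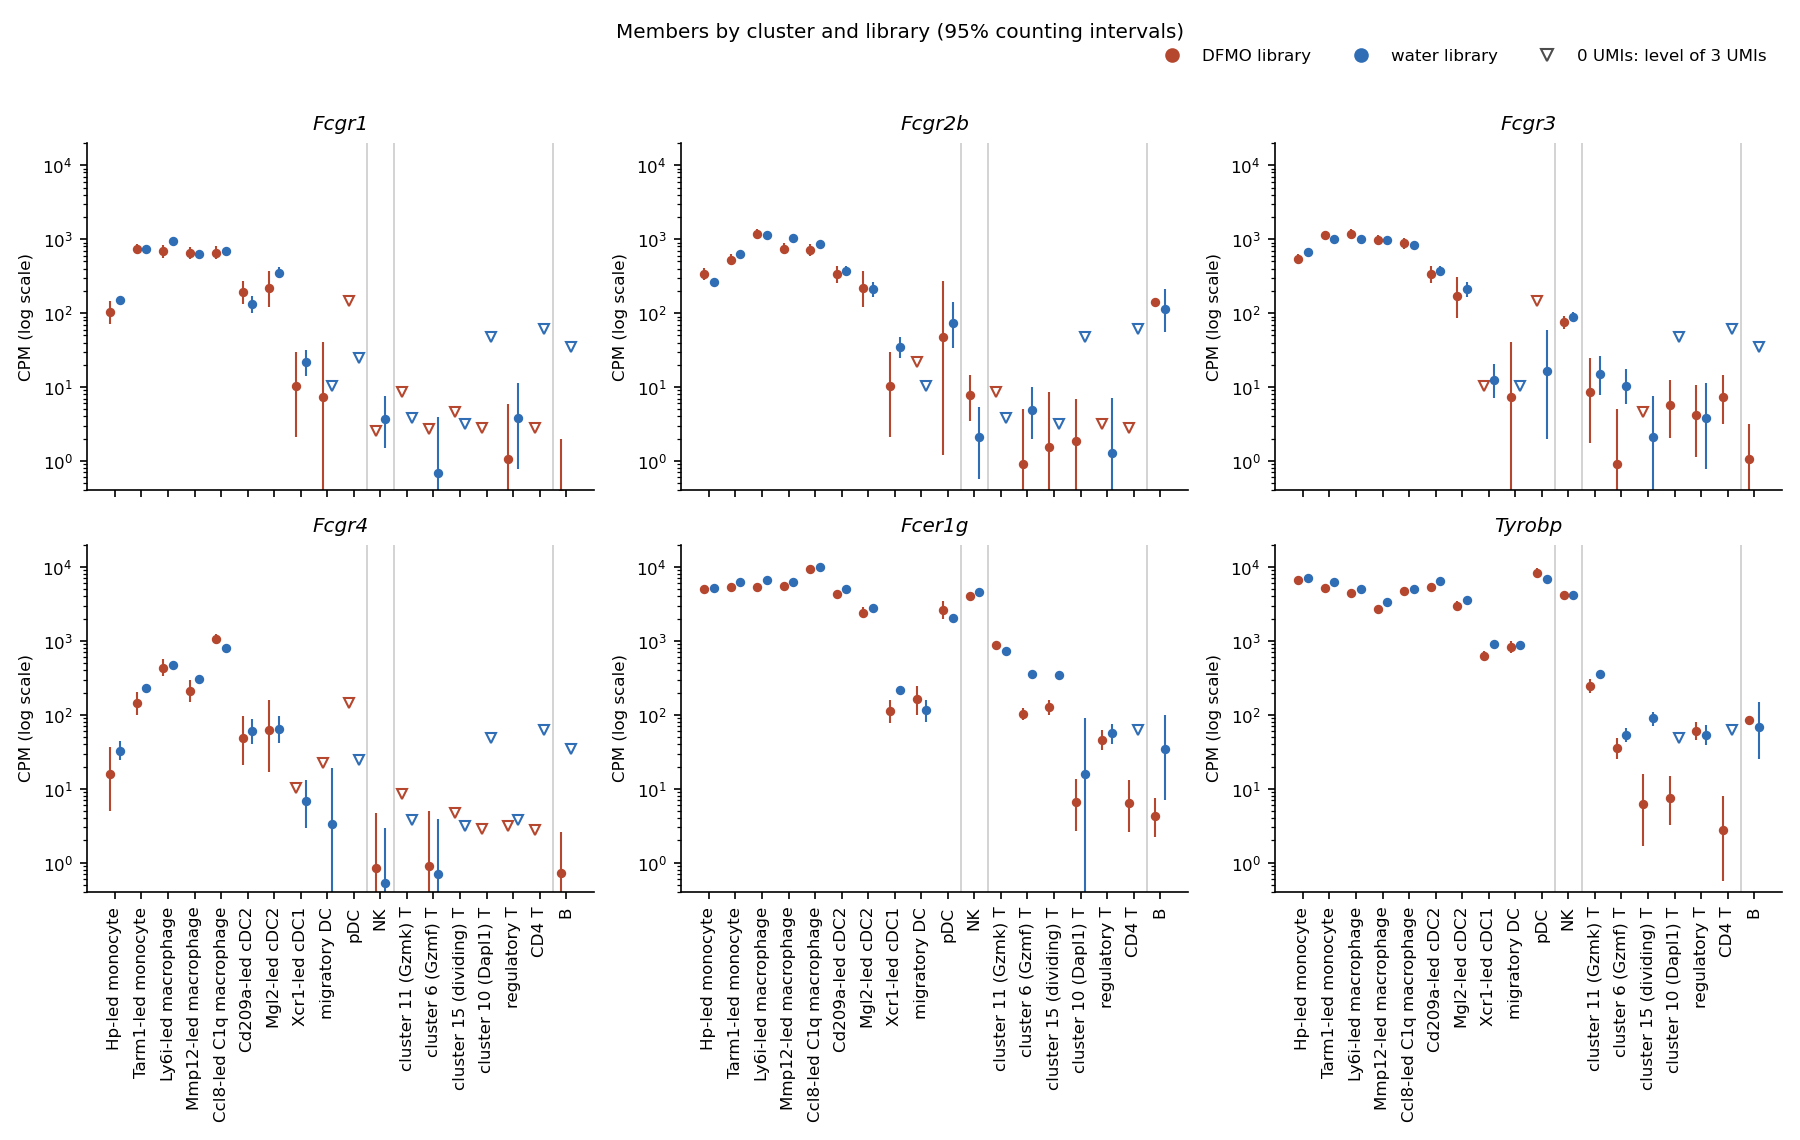
CPM of each gene (log scale) by cluster, DFMO at left and water at right of each pair; bars are 95% counting intervals and open triangles mark clusters with 0 UMIs at the level of 3 UMIs. Fcgr1, Fcgr3 and Fcgr4 sit highest in macrophage-like and Tarm1-led monocyte-like clusters, Fcer1g and Tyrobp also in NK cells, and Fcgr2b also in B cells.

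The 5 monocyte and macrophage-like subsets differed widely in Fcgr4. It was highest in the C1q macrophage-like cluster led by Ccl8, at 1059 CPM (903 to 1235) in 30 DFMO cells, against 795 CPM (741 to 852) in 191 water cells. It stood at 437 CPM in DFMO against 478 CPM in water cells of the Ly6i-led macrophage-like cluster, and at 213 CPM in DFMO against 306 CPM in water cells of the Mmp12-led Arg1 macrophage-like cluster. Among monocyte-like cells, the Tarm1-led cluster had 145 CPM in DFMO and 232 CPM in water cells, and the Hp-led cluster 15.7 CPM in DFMO and 32.9 CPM in water cells. This order was the same in each library, although in DFMO cells the intervals of the Mmp12-led cluster (151 to 293) and the Tarm1-led cluster (101 to 202) overlapped.

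Fcgr1 had another order. It was lowest in the Hp-led monocytes, with 103 CPM in DFMO and 151 CPM in water cells. The Tarm1-led monocytes held 742 CPM in DFMO and 739 CPM in water cells, and the C1q macrophages 656 CPM in DFMO and 693 CPM in water cells. Ly6i-led macrophages had 684 CPM (555 to 835) in 20 DFMO cells, against 953 CPM (886 to 1023) in 222 water cells, the highest Fcgr1 level of the water library. In the DFMO library the intervals of these 3 clusters overlapped, so they could not be ordered there.

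Fcgr3 varied least among the receptors of the 5 subsets. Its lowest level was in the Hp-led monocytes, at 545 CPM in DFMO against 673 CPM in water cells. The highest was in the Ly6i-led macrophages, at 1178 CPM in DFMO against 1011 CPM in water cells, where the water interval (942 to 1084) overlapped those of the Tarm1-led (945 to 1059) and Mmp12-led (910 to 1042) clusters. In DFMO its interval (1006 to 1371) overlapped those of the same clusters (1002 to 1275 and 841 to 1138), so the top rank is not firm in either library. Fcgr2b was also highest in Ly6i-led macrophages, at 1164 CPM in DFMO against 1135 CPM in water cells, where the water interval (1062 to 1212) overlapped that of the Mmp12-led cluster. In Mmp12-led macrophages it had 746 CPM (624 to 884) in 30 DFMO cells, against 1026 CPM (960 to 1096) in 164 water cells, intervals that did not overlap.

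The Hp-led monocytes were the only one of these subsets with 50 or more cells in each library (55 DFMO, 284 water), so ratios are given for it alone. Fcgr2b was 338 CPM in DFMO and 260 CPM in water cells (log2 ratio 0.38, 0.05 to 0.69), while Fcgr3 was lower in DFMO (-0.30, -0.55 to -0.07). Fcgr1 was lower as well (-0.55, -1.12 to -0.02). Fcgr4 alone was past 1.5-fold, on 5 DFMO UMIs, with an interval that included 0 (-1.07, -2.76 to 0.25). Background shares past 1.5-fold in this cluster were 9.59% of genes upwards and 9.70% downwards.

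The inhibitory share, Fcgr2b among the UMIs of the 4 Fcgr genes, sums up these levels. It was 26.9% (25.1 to 28.7) in DFMO and 28.4% (27.7 to 29.2) in water monocytes and macrophages, intervals that overlap. It was larger in DFMO cells of the Hp-led monocytes, at 33.8% (28.6 to 39.2) against 23.3% (21.3 to 25.5) in water cells. It was smaller in DFMO cells of the Mmp12-led macrophages, at 28.8% (24.7 to 33.2) against 34.9% (33.1 to 36.8) in water cells, where the bounds overlap slightly. In C1q macrophages Fcgr4 made up 31.9% (27.9 to 36.1) of Fcgr UMIs in DFMO and 25.0% (23.5 to 26.5) in water cells.

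**Figure D2:**
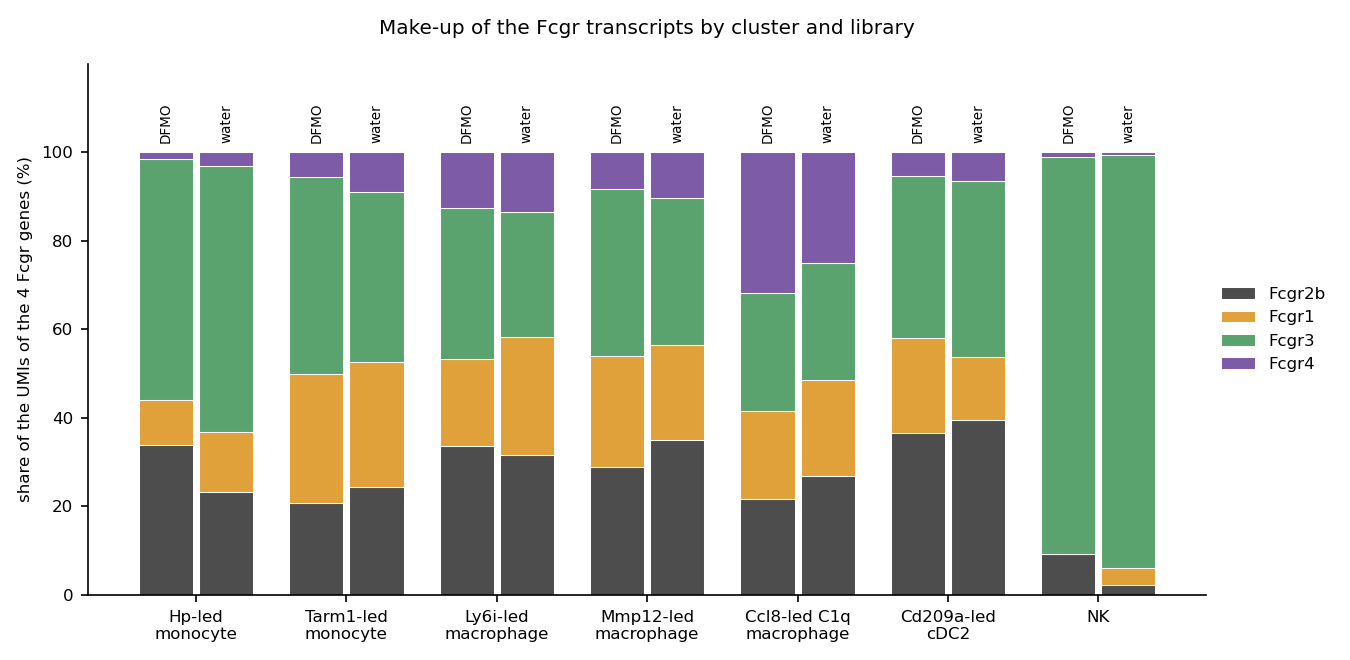
Share of the UMIs of the 4 Fcgr genes held by each gene (stacked to 100%) by cluster, DFMO bar left of the water bar. Fcgr4 makes up 31.9% in DFMO and 25.0% in water C1q macrophages, and Fcgr3 89.8% in DFMO and 93.4% in water NK cells.

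The adaptors had an order of their own. Fcer1g was highest in C1q macrophages, with 9272 CPM in DFMO and 9854 CPM in water cells, and lay between 4994 and 5552 CPM in DFMO and between 5258 and 6647 CPM in water cells of the other 4 subsets. Tyrobp was highest in these 5 subsets in the Hp-led monocytes, with 6570 CPM in DFMO and 7118 CPM in water cells, and lowest in the Mmp12-led macrophages, with 2742 CPM in DFMO and 3403 CPM in water cells. Tyrobp thus made up 56.8% of the UMIs of the adaptor pair in DFMO and 57.5% in water Hp-led monocytes, but 33.6% in C1q macrophages of each library.

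Dendritic cells separated by type. In Cd209a-led cDC2-like cells the 4 Fcγ receptor genes were lower than in the summed monocytes and macrophages, but not lower than in every subset. Fcgr4 had 48.6 CPM in DFMO and 61.1 CPM in water cells, against 15.7 and 32.9 CPM in the Hp-led monocytes, with overlapping intervals. Fcgr3 had 334 CPM in 31 DFMO cells and 371 CPM in 100 water cells, and Fcgr2b 334 CPM in DFMO and 369 CPM (315 to 430) in water cells, which in water was above the 260 CPM (235 to 288) of water Hp-led monocytes. Fcer1g stood at 4372 CPM in DFMO against 4980 CPM in water cells. Mgl2-led cDC2-like cells, which also had Epcam among their leading genes, held 2422 CPM of Fcer1g in 13 DFMO cells and 2762 CPM in 76 water cells.

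In Xcr1-led cDC1-like cells Fcer1g was far lower, at 113 CPM in 19 DFMO cells and 216 CPM in 98 water cells, while Tyrobp remained at 635 CPM in DFMO against 896 CPM in water cells. Migratory DC-like cells had 162 CPM of Fcer1g in DFMO and 115 CPM in water cells, with 832 CPM of Tyrobp in DFMO and 892 CPM in water cells, and at most 1 UMI of any Fcgr gene in either library. Plasmacytoid DC-like cells, 5 in DFMO and 24 in water, held Tyrobp at 8291 CPM in DFMO against 6908 CPM in water cells. Their Fcgr2b came from 1 UMI in DFMO and 9 UMIs in water cells.

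NK cell-like cells (208 DFMO, 350 water) held both adaptors at high levels, with Fcgr3 as nearly their only Fcγ receptor. Fcer1g had 4047 CPM in DFMO and 4643 CPM in water NK cells (log2 ratio -0.20, -0.25 to -0.15). Tyrobp had 4140 CPM in DFMO and 4143 CPM in water NK cells, a ratio of 0.999. Fcgr3 had 75.3 CPM (60.4 to 92.7) in DFMO, against 90.0 CPM (77.1 to 105) in water NK cells (-0.26, -0.65 to 0.12). None was past 1.5-fold, where 7.48% of 7652 genes were past it upwards and 5.36% downwards.

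Fcgr3 was detected in 31.2% of DFMO and 34.0% of water NK cells, and in 10.6% and 10.3% after thinning to 1000 UMIs per cell. In matrix-expressing cells without Ptprc, which should lack it, it was detected in 0.610% of DFMO and 1.87% of water cells at median depths of 16084 and 11936 UMIs, against 4382 and 4246 in NK cells. Fcgr1 had 0 UMIs in DFMO NK cells, where 3 UMIs would be 2.57 CPM, and 3.69 CPM in water NK cells. UMIs of the γ chain gene far outnumbered those of its Fcγ partner genes, while protein was not measured. There were 53.2 Fcer1g UMIs (43.1 to 66.3) per UMI of Fcgr1, Fcgr3 and Fcgr4 in DFMO and 49.3 (42.5 to 57.4) in water NK cells. In monocytes and macrophages the same ratio was 3.45 (3.27 to 3.64) in DFMO and 3.73 (3.65 to 3.82) in water cells.

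B cell-like cells showed the inhibitory receptor nearly alone. Fcgr2b had 143 CPM (130 to 158) in DFMO, against 115 CPM (55.2 to 212) in water B cells, and it made up 98.5% of the Fcgr UMIs of DFMO B cells. It was detected in 22.3% of DFMO and 14.0% of water B cells. Tyrobp had 85.0 CPM in DFMO and 69.1 CPM in water B cells, whereas Fcer1g came from 12 UMIs in DFMO and 3 UMIs in water cells. The ratios of Fcgr2b (0.32, -0.58 to 1.39) and Tyrobp (0.30, -0.84 to 1.76) were within counting error, and in this class 30.8% of genes were past 1.5-fold upwards and 14.3% downwards, with only 57 water cells.

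Among T cells, 4 clusters expressed Cd8a and Cd8b1, which encode the chains of CD8. They are given by number because 1 of them, cluster 11, had no CD8 gene but the monocyte marker Ly6c2 among its 10 leading genes; Ly6c2 is also known from memory CD8 T cells. Cluster 10 was led by Dapl1 and the naive T cell markers Lef1 and Tcf7, cluster 6 by Gzmf with the exhaustion markers Pdcd1 and Lag3, cluster 15 by Serpine2 with all 6 cell cycle markers, and cluster 11 by Gzmk. Over the 4 clusters summed, Fcer1g had 161 CPM in 840 DFMO cells and 441 CPM in 850 water cells, a log2 ratio of -1.46 (-1.60 to -1.31), which is the value the genes were chosen with. Tyrobp had 43.4 CPM in DFMO and 137 CPM in water cells (-1.66, -1.95 to -1.39), and Fcgr3 3.17 CPM in DFMO and 8.92 CPM in water cells, on 10 and 29 UMIs (-1.49, -2.70 to -0.42). All 3 were past 1.5-fold downwards. In this contrast 11.2% of 9404 genes were past 1.5-fold upwards and 6.15% downwards.

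The make-up of the 4 clusters differed between the libraries. Cluster 10 held 54.3% of the DFMO and 4.71% of the water cells, and its Fcer1g level was 6.59 CPM in DFMO and 16.1 CPM in water cells, on 7 UMIs and 1 UMI. Without it, Fcer1g had 239 CPM in DFMO and 449 CPM in water cells (-0.91, -1.06 to -0.76), where 5.70% of genes were past 1.5-fold upwards and 4.17% downwards. With the 4 clusters weighted by their share of the UMIs in water, Fcer1g had 296 CPM in DFMO and 441 CPM in water cells. That log2 ratio of -0.57 did not pass 1.5-fold. For Tyrobp the log2 ratio was -1.19 (-1.48 to -0.90) without cluster 10 and -0.82 with clusters at their share in water. For Fcgr3 it was larger in size without cluster 10 (-2.25, -4.22 to -0.74), on 4 DFMO and 29 water UMIs.

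Within clusters the direction was not shared. In cluster 6, Fcer1g had 104 CPM (85.5 to 124) in 218 DFMO cells, against 356 CPM (326 to 388) in 372 water cells (-1.78, -2.09 to -1.48). In cluster 15 it had 127 CPM (101 to 158) in 61 DFMO cells, against 350 CPM (314 to 390) in 134 water cells (-1.46, -1.83 to -1.11). In cluster 11 it had 868 CPM (774 to 972) in 105 DFMO cells, against 737 CPM (678 to 799) in 304 water cells (0.24, 0.03 to 0.44). Clusters 6 and 15 were therefore lower in DFMO and cluster 11, summed, slightly higher. Split by Cd8b1, as given below, neither part of cluster 11 had a higher Fcer1g CPM in DFMO. In the part without Cd8b1, however, Fcer1g was detected in a larger share of the DFMO cells. Background shares past 1.5-fold were 7.39% upwards and 4.72% downwards in cluster 6, 9.42% and 7.72% in cluster 11, and 7.98% and 7.35% in cluster 15.

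**Figure D3:**
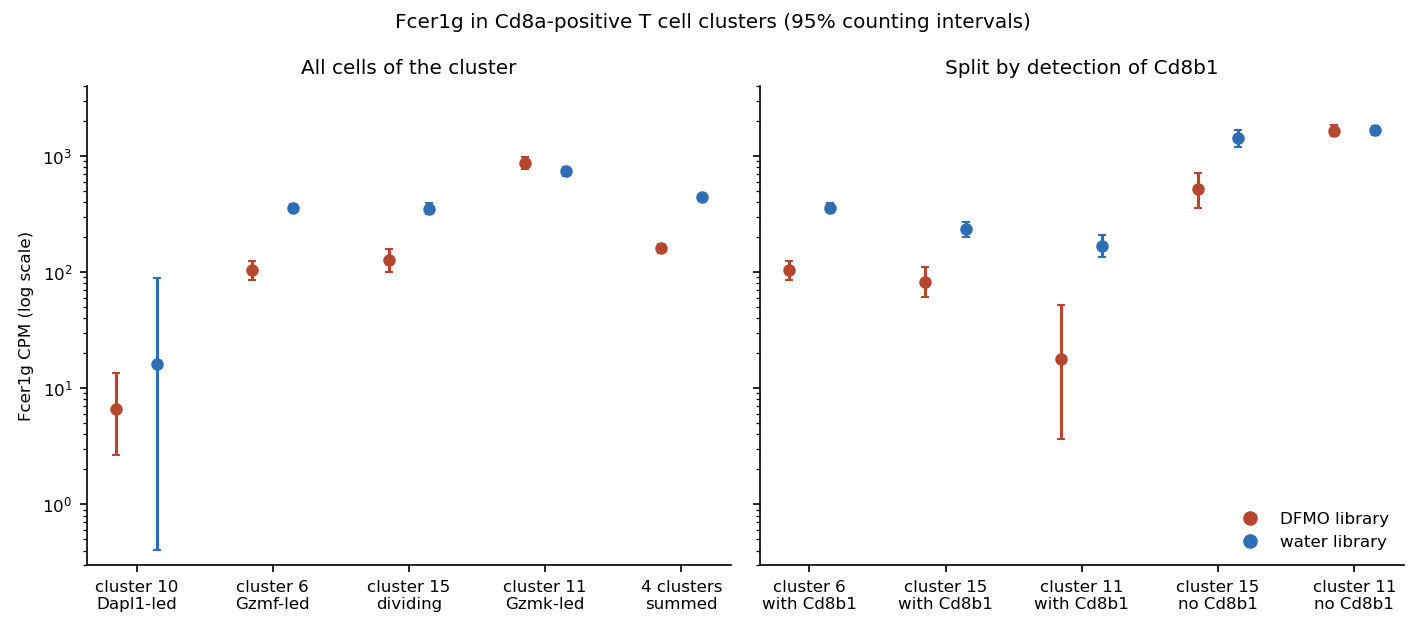
Fcer1g CPM (log scale) in the Cd8a-positive clusters, DFMO at left and water at right of each pair, with 95% counting intervals; the right panel splits cells by a Cd8b1 UMI. Cluster 6 lies at 104 CPM in DFMO against 356 CPM in water cells, and cluster 11 without Cd8b1 at 1654 CPM in DFMO against 1672 CPM in water cells.

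A small number of cells held most of these UMIs. In the 4 clusters, 18 DFMO cells (2.14%) and 54 water cells (6.35%) had 10 or more Fcer1g UMIs. The top 5% of cells held 86.4% of the Fcer1g UMIs in DFMO and 62.7% in water. These shares include cluster 10, which held few Fcer1g UMIs. Without it, the 18 DFMO and 54 water cells were 4.69% and 6.67% of cells, and the top 5% held 58.9% and 61.0%. In cluster 6, cells with 10 or more Fcer1g UMIs numbered 2 in DFMO and 18 in water. Fcer1g was detected in 9.63% of DFMO and 12.9% of water cells of cluster 6, a smaller gap than that of the CPM, and in 5.56% and 9.67% after thinning. In the matrix-expressing cells it was detected in 3.66% of DFMO and 5.25% of water cells before thinning and in 0.613% and 1.42% after it, at levels of 5.96 CPM in DFMO and 8.87 CPM in water cells.

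Splitting the cells by a Cd8b1 UMI separated cluster 11. Its cells without Cd8b1 numbered 55 in DFMO (52.4% of the cluster) and 112 in water (36.8%). They held 99.0% of its Fcer1g UMIs in DFMO and 85.7% in water, at 1654 CPM in DFMO against 1672 CPM in water cells (-0.02, -0.23 to 0.19). Fcer1g was detected in 78.2% of them in DFMO and 58.9% in water, at median depths of 2970 and 2442 UMIs. Cluster 11 cells with Cd8b1 had 17.8 CPM (3.67 to 52.0) in DFMO, on 3 UMIs, and 169 CPM (135 to 210) in water. Over the 4 clusters, cells with Cd8b1 had 59.2 CPM in DFMO and 280 CPM in water (-2.24, -2.49 to -2.00). Cells without it had 1177 CPM in DFMO and 1524 CPM in water (-0.37, -0.57 to -0.18). Cluster 10 supplied 436 of the 756 DFMO and 36 of the 705 water cells with Cd8b1, at 4.88 and 17.7 CPM. By cluster, the log2 ratio in cells with Cd8b1 was -1.79 in cluster 6, -1.50 in cluster 15 and -3.25 (-5.56 to -1.65) in cluster 11. The shares of these cells with an Fcer1g UMI lay closer together. They were 9.72% in DFMO and 13.1% in water in cluster 6, 11.1% and 11.9% in cluster 15, and 6.00% and 6.25% in cluster 11. In cluster 15, 6 DFMO cells held 48 UMIs and 14 water cells 202. In cluster 11, 3 DFMO cells held 3 UMIs and 12 water cells 84. In cells without Cd8b1 the log2 ratio was -1.46 in cluster 15, on 7 DFMO and 16 water cells.

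The Fcer1g-positive cells of cluster 11, 46 in DFMO and 78 in water, also carried NK receptor genes. Klrb1c, which encodes NK1.1, was detected in 34.8% of them in DFMO and 51.3% in water, against 5.08% and 3.10% of the Fcer1g-negative cells. Cd160 was detected in 69.6% in DFMO and 73.1% in water, Tyrobp in 34.8% in DFMO and 47.4% in water, and Cd3e, a part of the T cell receptor complex, in 100% in DFMO and 94.9% in water. For these 3 genes the shares of the Fcer1g-negative cells are not given here, and Cd160 was a leading gene of cluster 11 as a whole. The Fcer1g-positive cells of cluster 6, 21 in DFMO and 48 in water, had Cd8b1 in 100% and 97.9% and Pdcd1 in 90.5% and 89.6%. The Fcer1g-negative cells of cluster 6 were alike in these genes, with Cd8b1 in 99.0% and 96.3% and Pdcd1 in 89.8% and 83.3%. Klrb1c was detected in 4.76% of the positive cells in DFMO and 8.33% in water, against 0.508% and 2.16% of the negative cells. Tyrobp was detected in 19.0% of the positive cells in DFMO and 14.6% in water, against 2.54% and 2.78% of the negative cells.

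Monocyte and macrophage markers other than Ly6c2 had a lower sum in DFMO over the 4 clusters. Their sum was also lower in clusters 6, 15 and 11, although summed Fcer1g was slightly higher in DFMO in cluster 11. Without Ly6c2, the other 12 monocyte and macrophage markers summed to 31.7 CPM in DFMO and 112 CPM in water cells of the 4 clusters, with 2 at 0 in DFMO and 1 at 0 in water, against 36158 CPM in DFMO and 39252 CPM in water monocytes and macrophages. In cluster 6 they summed to 34.5 CPM in DFMO and 116 CPM in water cells, in cluster 15 to 40.2 and 74.0 CPM, and in cluster 11 to 42.7 and 157 CPM. The 7 neutrophil markers did not share this direction in every cluster. They summed to 16.8 CPM in DFMO and 27.7 CPM in water cells of the 4 clusters, with 5 at 0 in DFMO and 1 at 0 in water. By cluster they had 3.64 and 50.9 CPM in cluster 6, 3.10 and 2.08 CPM in cluster 15, and 19.9 and 16.3 CPM in cluster 11. Among Fcer1g-positive cells of cluster 6, Lyz2 was detected in 0% of those from DFMO (0 to 16.1) and 6.25% of those from water (1.31 to 17.2). C1qa was detected in 4.76% of those from DFMO (0.120 to 23.8) and 6.25% of those from water (1.31 to 17.2), with overlapping intervals for each gene. The 10 NK markers summed to 967 CPM in DFMO and 1448 CPM in water cells of the 4 clusters. By cluster they summed to 1770 CPM in DFMO and 1620 CPM in water cells of cluster 6, to 602 and 1253 CPM in cluster 15, and to 1014 and 1462 CPM in cluster 11. Over both libraries of cluster 6, the NK markers Ncr1 and Klrb1c had only 1.58 and 7.10 CPM. Most of its sum thus came from other genes of the list, and the sum is not a measure of NK cells. In cells without Ptprc other than the matrix-expressing ones, Fcer1g had 7.32 CPM in DFMO and 12.8 CPM in water cells (-0.81, -1.20 to -0.43), where 5.07% of genes were past 1.5-fold upwards and 2.82% downwards. The part of other cells, or of their free RNA, in the Fcer1g result was not tested.

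Tyrobp did not follow Fcer1g in every cluster. In cluster 11 it had 245 CPM in DFMO and 356 CPM in water cells (-0.54, -0.91 to -0.19), opposite in sign to Fcer1g. In cluster 15 it had 6.19 CPM on 4 UMIs in DFMO and 89.6 CPM in water cells, and in cluster 6 35.4 CPM in DFMO and 53.7 CPM in water cells (-0.60, -1.19 to -0.03).

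Other T cells had little of either adaptor. Regulatory T cell-like cells (242 DFMO, 274 water) had 46.3 CPM of Fcer1g in DFMO and 56.2 CPM in water cells (-0.28, -0.92 to 0.36), and 61.0 CPM of Tyrobp in DFMO and 53.6 CPM in water cells (0.19, -0.41 to 0.80). Neither passed 1.5-fold, as 16.2% of genes did upwards and 7.74% downwards. These values were not stable: Fcer1g passed it downwards with doublets kept (-1.61), at Leiden resolution 0.5 (-1.30), with cells of equal weight (-0.95) and with the members and pathway list among the variable genes (-0.91), and Tyrobp with doublets kept (-1.32) and at resolution 0.5 (-1.25). In CD4 T cell-like cells Fcer1g had 6.45 CPM in 627 DFMO cells and 0 UMIs in 38 water cells, where 3 UMIs would be 61.8 CPM.

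Summed over all kept cells, the 6 genes were lower in the DFMO library. Fcgr1 had 26.3 CPM in DFMO and 59.3 CPM in water (-1.17, -1.30 to -1.05), Fcgr4 14.6 and 33.0 CPM (-1.17, -1.34 to -1.01), and Fcgr3 49.9 and 91.9 CPM (-0.88, -0.97 to -0.79). Fcer1g had 553 CPM in DFMO and 892 CPM in water (-0.69, -0.72 to -0.66). Tyrobp (538 and 793 CPM, -0.56) and Fcgr2b (51.4 and 72.9 CPM, -0.50) did not pass 1.5-fold, so 4 of 6 did, where 10.1% of 14122 genes were past it downwards and 17.8% upwards. These values depend on the weight of deep cells: 6 of 6 passed when each cell had the same weight (Fcgr1 -2.37, Fcgr4 -2.32, Fcgr3 -1.98, Fcer1g -1.76, Tyrobp -1.59, Fcgr2b -0.95), and 6 of 6 with cells thinned to 1000 UMIs (-2.43 for Fcgr1 to -0.94 for Fcgr2b). In such sums, fewer cells of a type and less RNA per cell cannot be told apart.

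With each class weighted by its share of the UMIs in water, the log2 ratios were -0.21 for Fcgr1 and Fcgr4, -0.18 for Fcgr2b, -0.01 for Fcgr3, -0.22 for Fcer1g and -0.13 for Tyrobp, and 0 of 6 passed 1.5-fold. Monocytes and macrophages held 85.4% of Fcgr1 UMIs in DFMO and 89.9% in water. For Fcgr2b they held 53.6% in DFMO and 89.1% in water, and B cells 33.1% in DFMO and 0.235% in water. For Fcer1g, NK cells held 36.6% in DFMO and 16.9% in water.

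**Figure D4:**
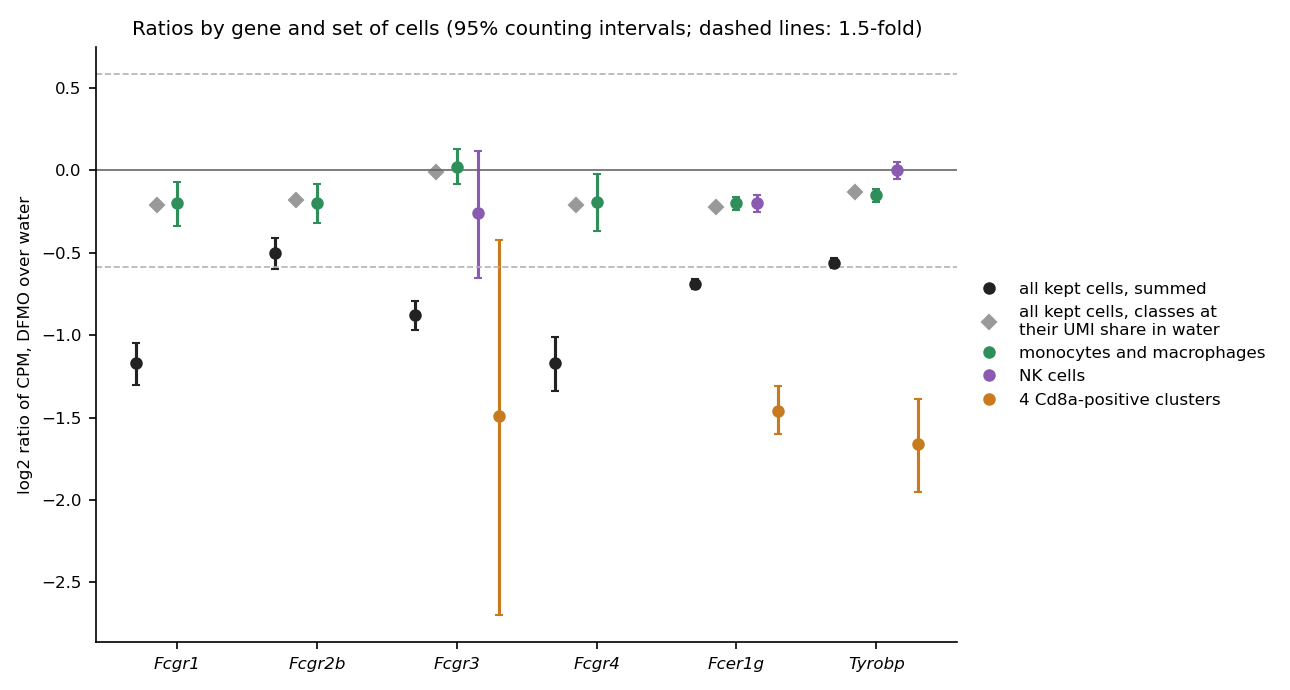
Log2 ratios of CPM, DFMO over water, for each gene over all kept cells (black), with classes at their UMI share in water (grey diamonds, no interval), in monocytes and macrophages, in NK cells and in the 4 Cd8a-positive clusters; bars are 95% counting intervals and dashed lines mark 1.5-fold. Fcgr1 lies at -1.17 over all kept cells and at -0.21 with classes at their share in water.

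Of 65 other genes of the pathway, listed by role, 64 were in the matrix. In monocytes and macrophages 50 had at least 30 UMIs, of which 4 were past 1.5-fold upwards and 3 downwards, with a median log2 ratio of 0.07 against 0.03 for all genes. The shares of all genes past 1.5-fold were 7.41% upwards and 8.45% downwards. Clec4e (Mincle, which signals through the γ chain) had 256 CPM in DFMO and 162 CPM in water cells (0.66, 0.46 to 0.86), and Pira2, an activating receptor that uses the γ chain, 78.3 CPM in DFMO and 43.7 CPM in water (0.84, 0.46 to 1.21). The kinase gene Btk had 57.0 CPM in DFMO and 33.2 CPM in water (0.78, 0.33 to 1.22). Fcrls, an Fc receptor-like gene, had 27.1 CPM in DFMO and 51.6 CPM in water (-0.93, -1.55 to -0.37), and Cd300ld 34.8 CPM in DFMO and 57.1 CPM in water (-0.71, -1.26 to -0.21).

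In NK cells 26 of these genes were measured, with 2 past 1.5-fold upwards and 0 downwards and a median of 0.20 against 0.05 for all genes, of which 7.48% were past it upwards and 5.36% downwards. The Src family kinase gene Lyn had 62.4 CPM in DFMO and 39.0 CPM in water NK cells (0.68, 0.19 to 1.17). In B cells 9 of 33 were past it upwards and 0 downwards, beside 30.8% and 14.3% of all genes. Hcst, the adaptor DAP10, had 168 CPM in DFMO and 69.1 CPM in water B cells (1.28, 0.15 to 2.73). In the 57 water B cells, 69.1 CPM corresponds to only 6 UMIs. In the 4 Cd8a-positive clusters 2 of 28 were past it upwards and 3 downwards, beside 11.2% and 6.15% of all genes. In regulatory T cells 0 of 22 were past it upwards and 2 downwards, beside 16.2% and 7.74% of all genes. In the Hp-led monocytes Trem3, a receptor that pairs with DAP12, had 40.7 CPM in DFMO and 92.4 CPM in water (-1.18, -2.13 to -0.36). In all kept cells 28 of 61 were past it upwards and 17 downwards, beside 17.8% and 10.1% of all genes. The B cell genes Fcer2a (138 CPM in DFMO, 1.34 CPM in water) and Fcmr (233 and 2.42 CPM) had the highest ratios, beside the 1478 DFMO and 57 water B cells.

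Across 33 cluster-by-library values from 22 clusters, the genes whose log2(CPM + 10) most resembled each member were compared among 8046 genes, as a description, since the points share libraries and depth. Fcer1g was most like Tyrobp (Pearson r = 0.937), then Lilr4b (0.900) and Lilrb4a (0.896). Fcgr4 was most like Fcgr1 (0.964), followed by Tmem86a (0.960) and the complement gene C1qb (0.952). Fcgr1 was most like Pilra (0.974), Fcgr3 most like Lair1 (0.971), which encodes an inhibitory collagen receptor, and Fcgr2b most like Cyp4f18 (0.961).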

How the data were processed

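The authors deposited 1 matrix of whole-number UMI counts per gene and cell, with the library of each cell. Per the submitters' processing notes, Cell Ranger 3.02, Scanpy 1.4.4 and the build mm10 were used. Cells with at least 200 genes were kept, and Scrublet removed 51 DFMO and 97 water cells as doublets (1.14% and 1.55%, at an assumed rate of 0.05). Counts were scaled to 10000 per cell and logged. Cells were clustered with scanpy 1.11.5 (2000 variable genes without receptor segments, the 6 members and the pathway list, 30 principal components, 15 neighbours, Leiden resolution 1.0), and 7 clusters were split again. UMIs were summed per cluster and library, with exact Poisson intervals for CPM, conditional binomial ones for ratios and Clopper-Pearson ones for shares. Ratios need 50 cells per library and 30 UMIs, except those of cells split by Cd8b1, for which no minimum was set. Kept cells held 23383042 UMIs in DFMO and 58368594 in water. Interval code was tested on simulated data. edgeR 4.0.16 gave TMM factors for an alternative. All 6 members could be named in every class, but members with few UMIs in a class are not all given. From the pathway list, up to 6 genes a class could be named. These needed 100 UMIs, a ratio past 1.5-fold and an interval without 0, and not all such genes are given. Genes of most similar pattern were the top 5 by r. Members and lists were chosen with earlier results of these data known.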

Additional observations from a re-analysis of the deposited data

Results flagged for a closer look

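The log2 ratio of Fcer1g, DFMO over water, differed in sign between Cd8a-positive T cell clusters: it was -1.78 in cluster 6 and -1.46 in cluster 15, but 0.24 in cluster 11. With 1 library per group, this difference between clusters was not tested. Split by a Cd8b1 UMI, neither part of cluster 11 had a higher Fcer1g CPM in DFMO. The ratio was -0.02 (-0.23 to 0.19) in cells without Cd8b1. Of those cells, 78.2% in DFMO and 58.9% in water had an Fcer1g UMI. In cells with Cd8b1, the ratio was -3.25 (-5.56 to -1.65), on 3 DFMO UMIs. Cells without Cd8b1, which had the higher level, made up 52.4% of the DFMO and 36.8% of the water cells of cluster 11.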

How the results depend on the processing

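No paired analysis was possible because DFMO and water were sequenced as 1 library apiece, and for the same reason no replicate could be left out. Of 259 alternative values, 212 stayed within counting error of the reported one (for counts, within 1.5 times), 46 moved further and 1 changed the sign of a ratio past 1.5-fold. For Fcer1g in the 4 Cd8a-positive clusters (-1.46), 9 settings of filtering, clustering and scaling gave -1.58 to -1.34. Leaving out the naive-marked cluster 10 gave -0.91. Alternatives chosen after seeing the data gave -1.78 for cluster 6 alone, 0.24 for cluster 11 alone (the change of sign) and -2.25 without cluster 11. They gave -2.24 in cells with Cd8b1, -0.37 in cells without it, and -0.57 with clusters at their share in water. The values -2.25 and -2.24 include cluster 10, and the cause was not tested. Thinning to 1000 UMIs gave an inhibitory share of 24.2% in DFMO and 29.2% in water, against 26.9% and 28.4%. The count of members past 1.5-fold within classes, 3, became 7 with doublets kept and 6 at Leiden resolution 0.5. Over all kept cells 4 became 0 with classes at their share in water, a value added after seeing the data, but 6 with cells of equal weight and 6 with thinning, where the log2 ratios were larger in size (Fcgr1 -2.37 and -2.43, against -1.17), and 5 with TMM and 5 with doublets kept. The count of pathway genes past 1.5-fold, 25, became 46 at resolution 0.5, 45 at resolution 2.0 and 11 with at least 100 UMIs. For the counts of members and of pathway genes, the share of all genes past 1.5-fold was computed at the reported setting only. The alternative counts therefore cannot be set against a background. In regulatory T cells Fcer1g (-0.28) ranged from -1.61 with doublets kept to 0.13, and Tyrobp (0.19) from -1.32 to 0.55, so both signs occurred for each. In B cells Tyrobp (0.30) ranged from 0.12 to 1.22. TMM moved ratios by -0.09 to 0.09. Low counts limit Fcgr values in lymphocytes, and 57 water B cells and 38 water CD4 T cells limit those classes.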

Other observations

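A cluster that mixed myeloid and matrix genes (25 DFMO and 143 water cells, led by Col3a1) was left out of the classes above. Its Fcer1g level was 957 CPM in DFMO and 1098 CPM in water cells, and its Fcgr3 level 100 CPM in DFMO and 104 CPM in water cells. Dividing B and plasma cells, 42 in DFMO and 6 in water, had Fcgr2b at 91.6 CPM in DFMO against 83.3 CPM in water cells.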
